A study of Rattus norvegicus with 30 samples.

Results

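Most of the genes described here build or switch on the motile cilium, but 8 of those tested have no sure role in its core, the axoneme. They were chosen by name: every measured gene whose symbol starts with Tekt, Dnah, Dnai, Drc, Rsph or Cfap, or with Spag followed by a digit, plus Foxj1, Tppp3, Hydin, Rfx2, Rfx3, Ccdc39 and Ccdc40. Of 103 rat genes with such names in the RefSeq gene table, 57 had a matched probe on the array, among 26913 genes with a probe in all. The test covered 52 of the 57, among 18420 genes tested. The other 5 (Cfap20dc, Cfap68, Cfap97d1, Spag11a and Spag6) were above background on at most 3 of 30 arrays. The 46 genes without a matched probe include Dnah5, Dnah9, Hydin, Rfx3, Ccdc39 and Rsph4a and are not analysed here.

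Motile cilia are the beating projections of ciliated cells in the airway epithelium, and they move mucus out of the lung. Each is built on an axoneme, a ring of doublet microtubules around a central pair, which bends when dynein arms on a doublet walk along its neighbour. Radial spokes and the nexin-dynein regulatory complex set when the arms work, tektins and microtubule inner proteins stiffen the doublets, and the transcription factors Foxj1 and the Rfx family switch the whole gene set on. In bulk lung RNA fewer ciliated cells and less RNA per cell cannot be told apart.

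Lung RNA came from 30 adult male Wistar Unilever outbred rats of strain HsdCpb:WU, bought at 8 weeks of age and acclimatized before use. Rats breathed air, or copper oxide (CuO) nanoparticles at 3.3 mg/m3 (low dose) or 13.2 mg/m3 (high dose), through the nose on 5 consecutive days. Lungs were taken 1 day after the last exposure (day 6) or 22 days after it (day 28), which gives 6 groups of 5 rats with 1 array each. A value below is the log2 ratio of lung RNA, labelled with Cy5, to a reference RNA shared by all arrays, labelled with Cy3. It can be set against the same gene in other rats but not against another gene. Groups were compared with limma, and a gene is called when its Benjamini-Hochberg adjusted p over all 18420 genes is under 0.05.

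The array signal was similar between rats, with a median Cy5 intensity of 216 to 432 and 59.5% to 68.4% of probes well above background. The epithelial and lung markers Epcam, Cdh1, Scgb1a1, Sftpc and Ager were above background on all 30 arrays, as were 46 of the 52 tested cilium genes. The other 6 were dim: Cfap300 and Tekt5 were above background on 11 arrays, Spag4 on 13, Spag16 on 27, and Dnai3 and Rsph6a on 29. One control library stood apart. Air rat 4 of day 6 had the highest value of its group in 43 of the 52 genes and the highest level of all 30 rats for club and goblet cell markers (mean log2 ratio 3.59, against a mean of 2.03 in the other air rats of day 6) and heart muscle markers (4.78 against -0.52). Results that rest on this rat are given with and without it.

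Most of the cilium genes rose and fell together from rat to rat, whatever the exposure. With group means removed, 21 of the 52 genes correlated at r of 0.9 or more with the median of the other members over the 30 rats, 20 at 0.5 to 0.9, and 11 below 0.5. These correlations are descriptions: all genes of a rat share 1 lung sample and 1 array. Cfap77, a protein inside the doublets, followed the others most closely (r = 0.98), and the central pair gene Spag6l (0.97), the inner protein genes Cfap276 and Cfap52 (both 0.96), the outer arm intermediate chain Dnai1 (0.96) and the spoke head gene Rsph9 (0.96) came next. Foxj1 stood at 0.91. Without air rat 4, 16 genes stayed at 0.9 or more.

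Of the tested genes, 8 share the name without a sure place in the axoneme, and none of them reached 0.9. Here r was 0.73 for Cfap418, 0.60 for Cfap36, 0.32 for Cfap410, 0.16 for Cfap97, 0.00 for Spag7, -0.04 for the kinase scaffold gene Spag9, -0.32 for the nuclear envelope gene Spag4 and -0.40 for Spag5. Spag5 encodes astrin, a protein of the mitotic spindle. Some axonemal genes also stood outside the shared pattern: the tektins Tekt2 (0.40), Tekt3 (0.39) and Tekt5 (0.30), Cfap43 (0.35) and the spoke gene Rsph6a (-0.02). In the mouse Rsph6a and Tekt5 are known from sperm.

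**Figure D1:**
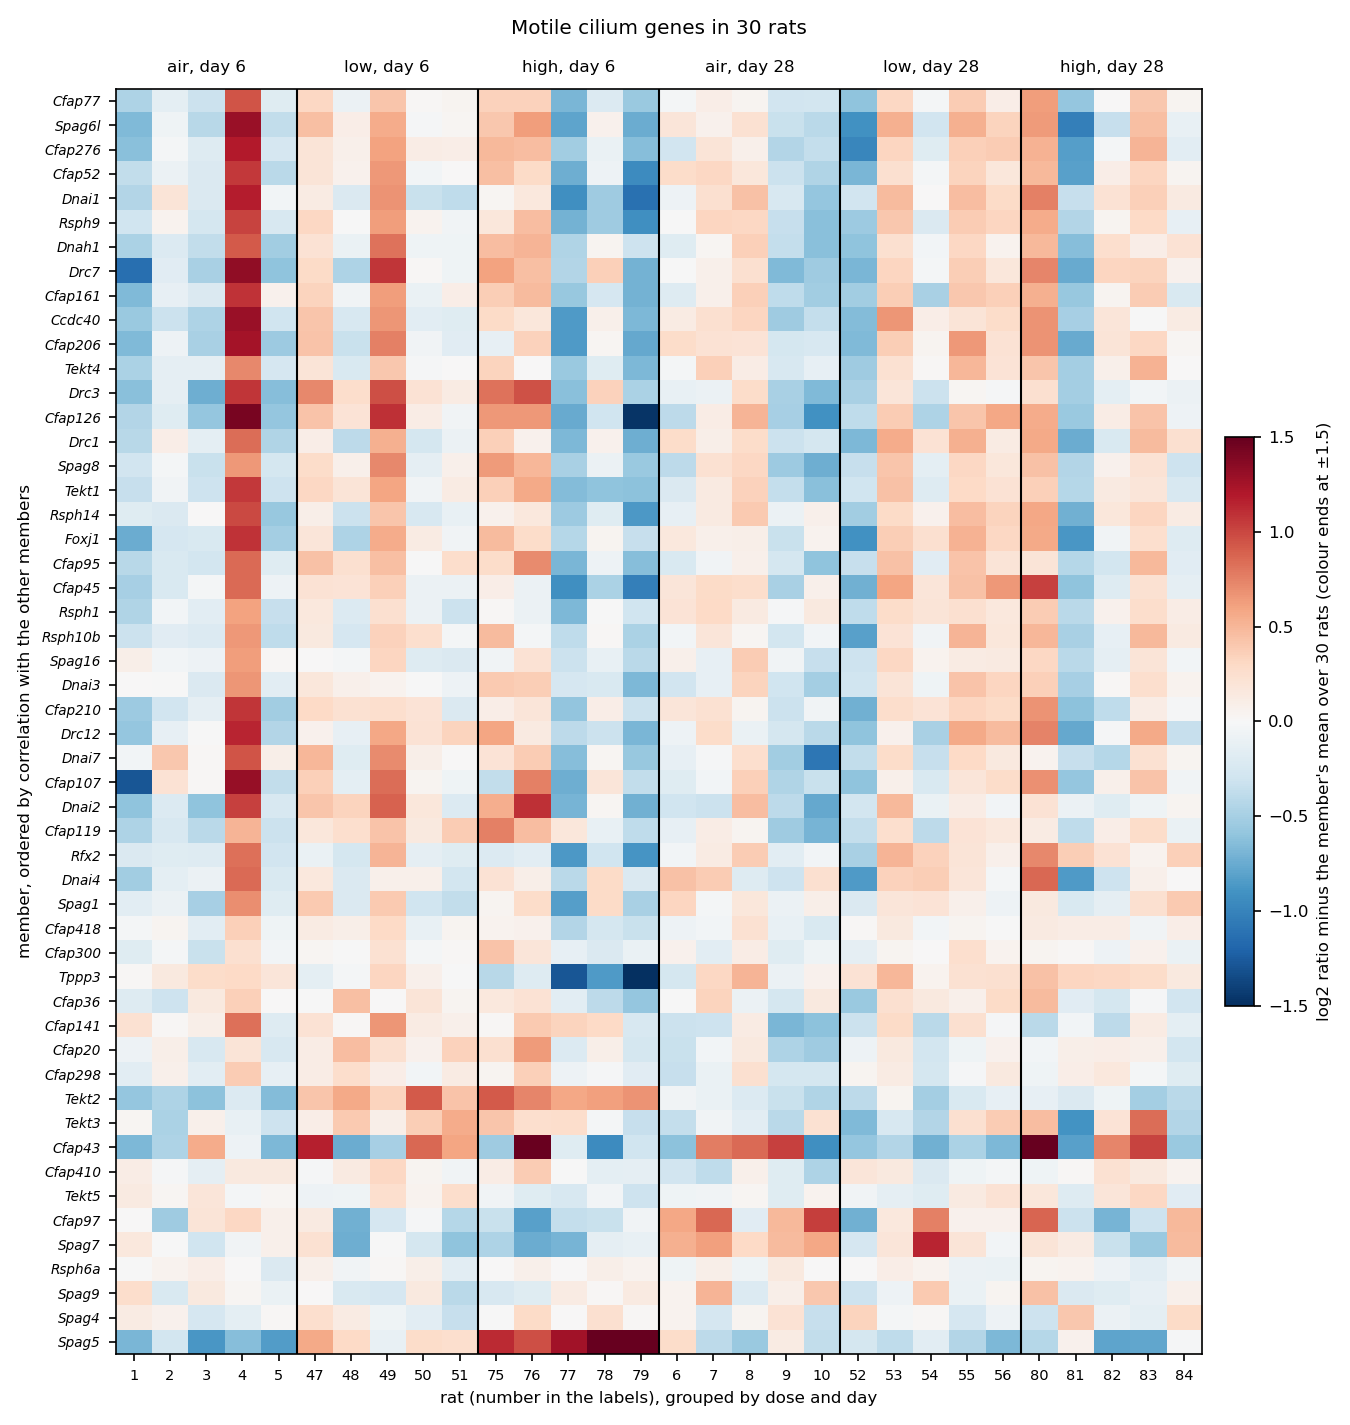
Log2 ratio of each of the 52 tested genes (rows, ordered by correlation with the other members) in each of the 30 rats (columns, grouped by dose and day), minus the gene's mean over the 30 rats. Whole columns turn red or blue together across most rows, with air rat 4 of day 6 the reddest, while Tekt2 and Spag5 near the bottom change by group.

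The shared swing between rats made these genes variable inside every group. The median within-group SD was 0.41 for the 52 genes against 0.18 for all genes tested, and 47 of the 52 lay above the median of all genes. Without air rat 4 the medians were 0.36 and 0.18. On day 6 the median of the 52 genes, each taken relative to its own 30-rat mean, was -0.39, -0.11, -0.21, 0.82 and -0.25 in air rats 1 to 5. In low dose rats 47 to 51 it was 0.20, -0.03, 0.41, 0.02 and -0.04, and in high dose rats 75 to 79 it was 0.23, 0.29, -0.50, -0.06 and -0.48. The 3 groups overlap, and high dose rats 77 and 79 were the lowest of the 30. On day 28 the medians were -0.06, 0.10, 0.19, -0.29 and -0.35 in air rats 6 to 10, -0.44, 0.26, -0.05, 0.24 and 0.16 in low dose rats 52 to 56, and 0.45, -0.43, 0.01, 0.24 and -0.02 in high dose rats 80 to 84. With all rats, no dose group lay apart from its controls at either time. On day 6 the overlap of low dose and air rests on air rat 4, which was set apart by these same genes. Every low dose rat (-0.04 or more) lay above every other air rat (-0.11 or less), while high dose rats lay on both sides of them.

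**Figure D2:**
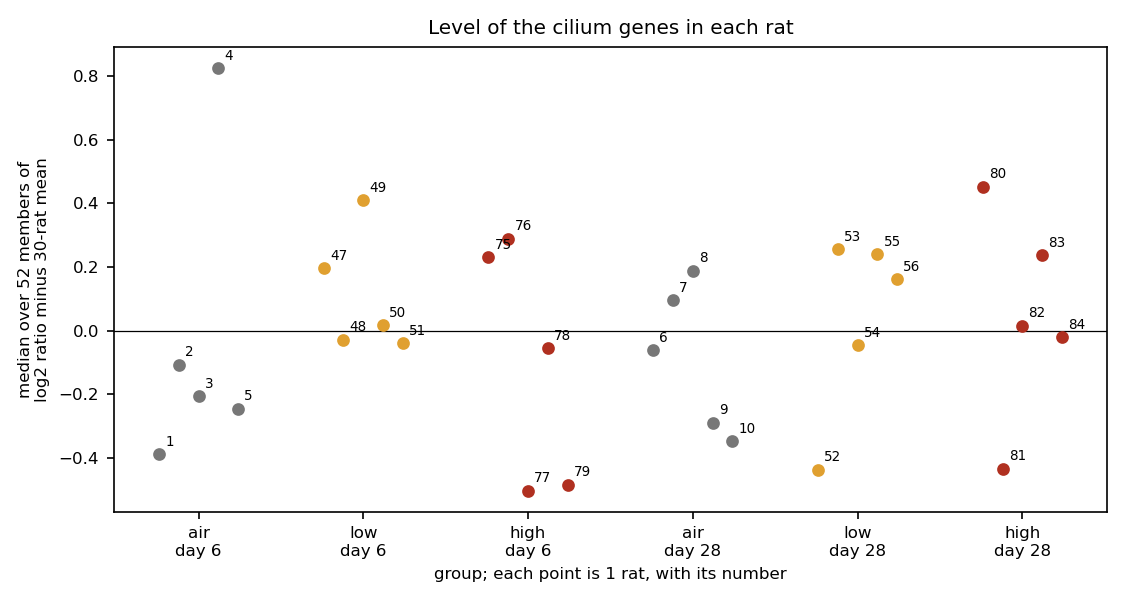
Median over the 52 tested genes of the log2 ratio minus each gene's 30-rat mean (y axis, log2), 1 point per rat, by group (x axis), with rat numbers. Air rat 4 of day 6 stands at 0.82 and the other 29 rats lie between -0.50 and 0.45. Each group except air on day 6 without rat 4 has rats on both sides of 0.

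The rats' club and goblet cell markers moved with the cilium genes. Across the 30 rats, with group means removed, the mean of 15 club and goblet markers had r = 0.89 with the cilium median (0.87 without air rat 4), smooth muscle and airway wall markers 0.71 (0.62), heart muscle markers 0.56 (0.33), and alveolar type II and type I markers 0.33 and 0.29 (0.35 and 0.45). Other airway and epithelial markers followed weakly: cartilage of the large airways 0.31 (0.15), general epithelium 0.19 (0.17), and basal and squamous epithelium 0.10 (-0.04). The mean level of the club and goblet markers ranged from 1.96 to 3.59 in air, 2.30 to 3.20 in low dose and 2.07 to 2.90 in high dose rats of day 6, and from 1.77 to 2.09, 1.70 to 2.45 and 1.58 to 2.49 in those of day 28. The 3.59 was air rat 4. The other air rats of day 6 had a mean of 2.03, below every low dose and high dose rat of that day. Cilium genes outside the naming rule followed too, at 0.99 for 54 other genes of the axoneme and of ciliated cells, 0.96 for 22 dynein assembly and docking genes, 0.84 for 36 genes of intraflagellar and ciliary transport and 0.63 for 9 regulators of multiciliation. At the high dose on day 6, 4 of the 15 club and goblet markers rose and 1 fell, where 21.0% of all genes were higher and 15.5% lower. At the low dose 4 rose and 0 fell, where 4.96% of all genes were higher. The part of airway content in each lung sample in the results below was not tested.

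At the high dose on day 6, 3 of the 52 genes were called (5.77%), with Spag5 and Tekt2 higher and Tppp3 lower, while 36.5% of all genes tested were called. The median difference over the 52 genes was -0.09 against 0.01 over all genes, and 34 of the 52 lay below 0. The low dose gave 2 calls (3.85%), Tekt2 and Spag5, both higher, where 6.71% of all genes were called. There the median was 0.14 and 13 of the 52 lay below 0. The wide spread between rats enters these counts: the median SE of a difference was 0.24 for the cilium genes and 0.12 for all genes. The 95% interval of the difference lay within 1 log2 unit of 0 for 45 of the 52 genes at each dose, and within 0.5 for only 12 at the high dose and 15 at the low dose. Most members swing together, so these intervals are not separate observations.

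**Figure D3:**
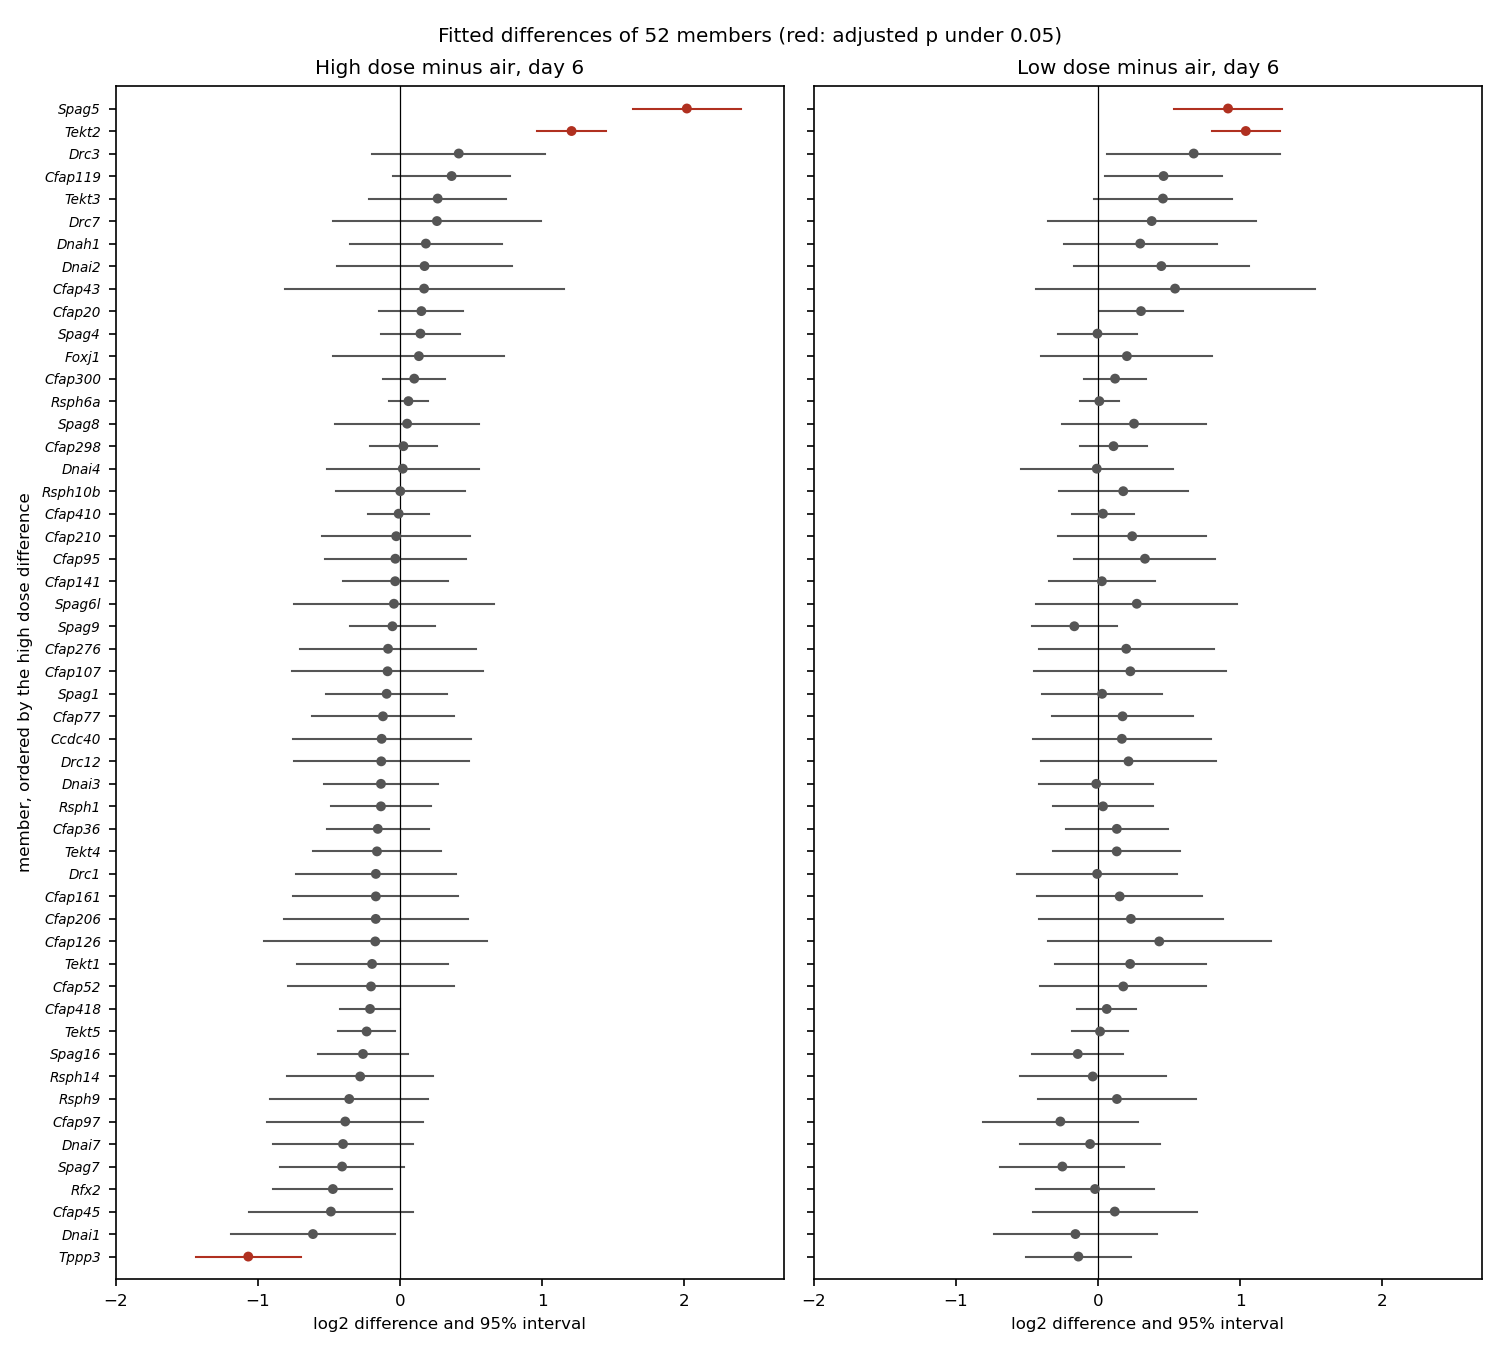
Fitted log2 differences from air on day 6 (points) with 95% intervals (lines) for the 52 tested genes, at the high dose (left) and the low dose (right), ordered by the high dose difference. Spag5 and Tekt2 are called at both doses and Tppp3 at the high dose, and the intervals of most other genes cross 0.

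Tekt2 encodes tektin 2, a filament protein of the doublet wall that is needed for cilium and sperm motility in the mouse. In lungs of day 6 its values were 0.96, 1.07, 0.92, 1.33 and 0.88 in air rats, 1.95, 2.11, 1.87, 2.46 and 1.97 in low dose rats and 2.45, 2.27, 2.11, 2.16 and 2.21 in high dose rats. Every exposed rat lay above every air rat, and the 2 doses overlapped. Relative to air Tekt2 was 2.31-fold higher at the high dose (log2 difference 1.21 ± 0.12, SE, n = 5 rats per group; limma adjusted p = 3.99e-09) and 2.05-fold higher at the low dose (1.04 ± 0.12; limma adjusted p = 5.26e-07). High and low dose differed by 0.17, with a 95% interval of -0.07 to 0.41 and an adjusted p of 0.415. By day 28 the values were back among the controls, at 1.48, 1.44, 1.33, 1.20 and 1.09 in air rats, 1.15, 1.57, 1.02, 1.30 and 1.41 in low dose rats and 1.41, 1.31, 1.47, 1.03 and 1.13 in high dose rats. The high dose difference fell by 1.25 between the times (SE 0.17, limma adjusted p = 3.02e-06) and the low dose difference by 1.06 (SE 0.17, limma adjusted p = 0.000291).

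No other tektin was called on day 6 in this fit. The differences from air at the high and low dose were -0.20 and 0.22 for Tekt1, 0.27 and 0.46 for Tekt3, -0.16 and 0.13 for Tekt4, and -0.23 and 0.01 for Tekt5. With slide as a block Tekt5 was called at the high dose (-0.23, limma adjusted p = 0.0223, against 0.0605 without the block). All 5 high dose rats lay below all 5 air rats for Tekt5, and its signal was not well above background in any of those high dose rats. On day 6 Tekt1 stood at 0.72, 1.02, 0.77, 2.14 and 0.77 in air rats, 1.38, 1.27, 1.66, 1.03 and 1.20 in low dose rats and 1.43, 1.64, 0.42, 0.47 and 0.46 in high dose rats. Its high dose rats split, with rats 75 and 76 above all but 1 air rat and rats 77 to 79 below all 5. Day 28 values of Tekt1 were 0.86, 1.21, 1.42, 0.72 and 0.44 in air, 0.78, 1.51, 0.88, 1.37 and 1.29 in low dose and 1.43, 0.64, 1.21, 1.26 and 0.83 in high dose rats, which overlap throughout. Within the 4 slides that held both groups, the Tekt2 difference at the high dose was 1.11 to 1.35.

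Spag5, the spindle gene, had the largest difference of the 52 at the high dose. On day 6 Spag5 values were -4.22, -3.81, -4.41, -4.18 and -4.38 in air rats, -2.98, -3.25, -3.66, -3.26 and -3.29 in low dose rats and -2.42, -2.58, -2.28, -1.82 and -1.81 in high dose rats. The 3 groups formed 3 steps without overlap. It was 4.05-fold higher than air at the high dose (log2 difference 2.02 ± 0.19, SE, n = 5; limma adjusted p = 1.47e-09) and 1.88-fold higher at the low dose (0.91 ± 0.19; limma adjusted p = 0.0018), and the doses differed by 1.11 (limma adjusted p = 0.000142). On day 28 it stood at -3.27, -3.93, -4.10, -3.42 and -3.91 in air rats, -3.81, -3.93, -3.70, -3.98 and -4.21 in low dose rats and -3.97, -3.48, -4.34, -4.33 and -3.56 in high dose rats, and the groups overlap. The high dose difference fell by 2.23 between the times (SE 0.26, limma adjusted p = 4.82e-07) and the low dose difference by 1.11 (SE 0.26, limma adjusted p = 0.0181). Genes of mitosis rose in the same lungs: 23 of 24 at the high dose, where 21.0% of all genes were higher, and 14 of 24 at the low dose, against 4.96%. Their mean level ranged from -3.59 to -3.25 in air, -2.96 to -2.52 in low dose and -2.04 to -1.82 in high dose rats.

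Tppp3 encodes a tubulin-binding protein that bundles microtubules and is abundant in ciliated cells. Its day 6 values were 3.20, 3.33, 3.46, 3.48 and 3.36 in air rats, 3.04, 3.16, 3.50, 3.26 and 3.18 in low dose rats and 2.76, 2.99, 1.89, 2.33 and 1.53 in high dose rats. All 5 high dose rats lay below every air and every low dose rat, and rats 77 and 79, low for the cilium genes as a whole, were the lowest. Tppp3 was 2.09-fold lower than air at the high dose (log2 difference -1.07 ± 0.18, SE, n = 5; limma adjusted p = 3.01e-05) and 1.90-fold lower than at the low dose (-0.93 ± 0.18; limma adjusted p = 0.000749). The low dose differed from air by -0.14, with a 95% interval of -0.51 to 0.23. On day 28 Tppp3 stood at 2.92, 3.49, 3.69, 3.09 and 3.25 in air rats, 3.40, 3.68, 3.23, 3.41 and 3.42 in low dose rats and 3.63, 3.51, 3.49, 3.46 and 3.33 in high dose rats. There the groups overlap, and the change of the high dose difference between the times was 1.26 (SE 0.26, limma adjusted p = 0.000709). Within slides the high dose difference of day 6 ran from -1.57 to -0.29. With r = 0.60, Tppp3 followed the other members less closely than most doublet genes.

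**Figure D4:**
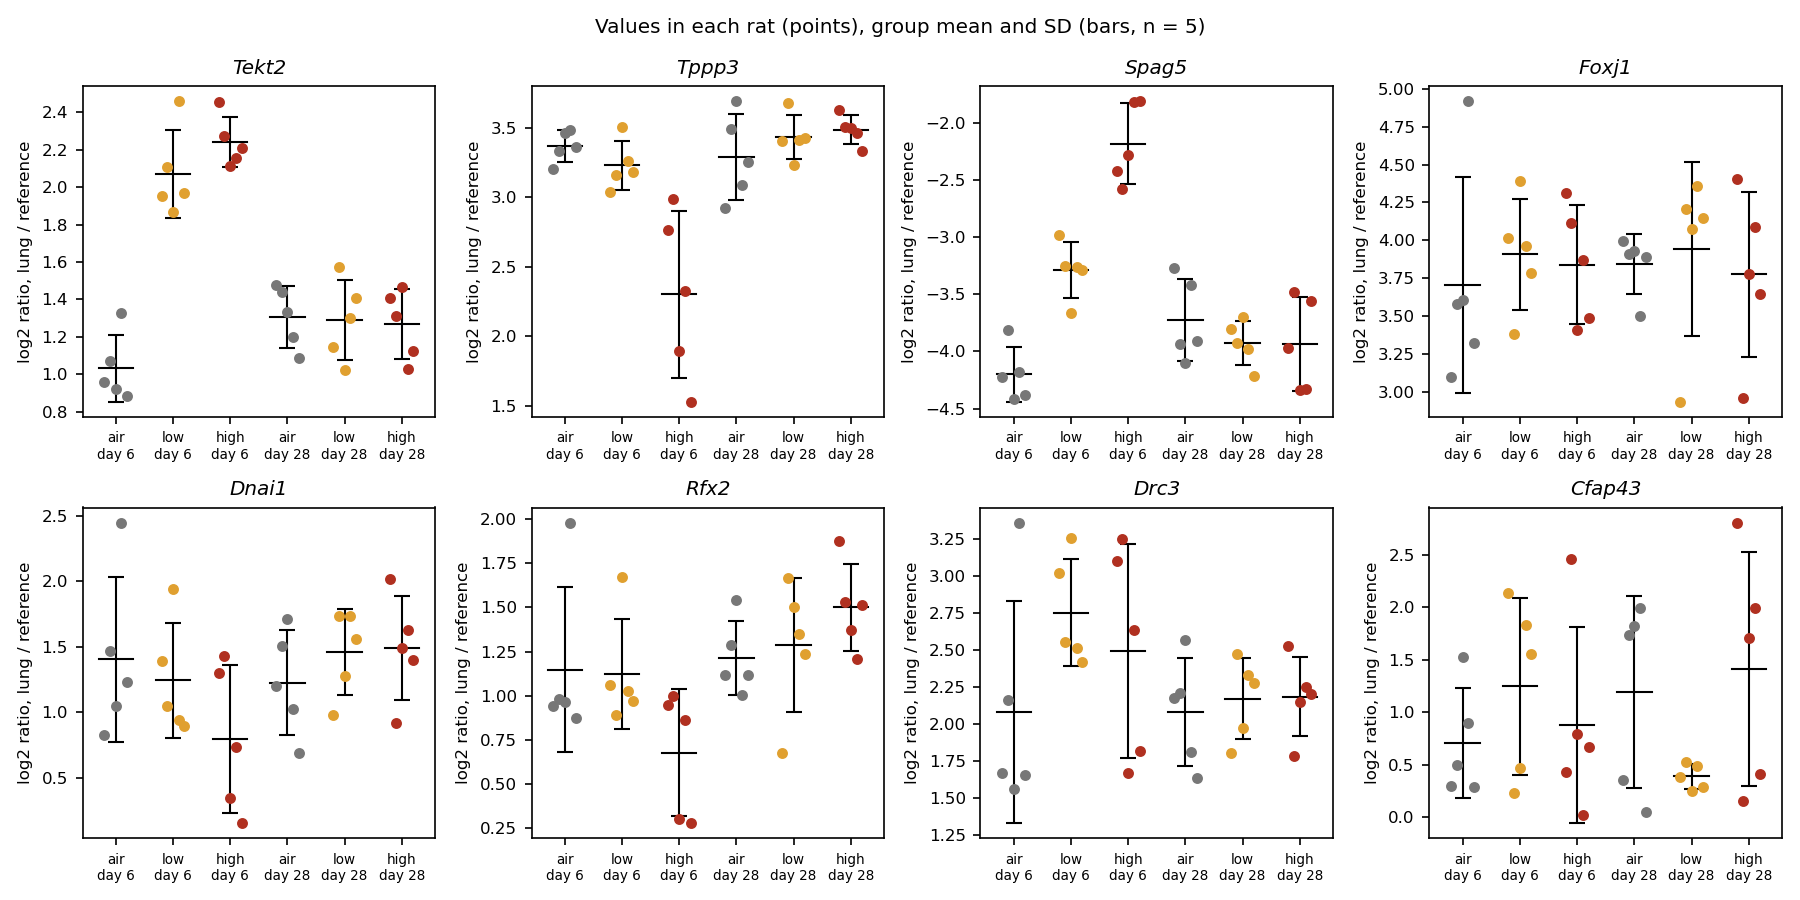
Log2 ratio of lung to reference RNA (y axis) for 8 genes in each rat (points) by group (x axis), with group means and SDs (bars, n = 5). Tekt2 and Spag5 are higher and Tppp3 is lower in high dose rats of day 6, and all 3 overlap between groups on day 28, while Foxj1, Dnai1, Rfx2 and Drc3 overlap between groups and Cfap43 varies widely inside groups.

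The 2 measured transcription factors were not called in any comparison. Foxj1, the master switch of motile ciliogenesis, stood on day 6 at 3.10, 3.58, 3.61, 4.92 and 3.32 in air rats, 4.02, 3.38, 4.39, 3.96 and 3.79 in low dose rats and 4.31, 4.11, 3.41, 3.87 and 3.48 in high dose rats. Its day 28 values were 4.0, 3.91, 3.93, 3.50 and 3.89 in air, 2.93, 4.20, 4.08, 4.36 and 4.15 in low dose and 4.41, 2.96, 3.78, 4.08 and 3.64 in high dose rats. All 3 groups overlapped at both times, and the high dose difference on day 6 was 0.13 with a 95% interval of -0.47 to 0.73. Without air rat 4 the Foxj1 difference was 0.44 at the high dose (limma adjusted p = 0.207) and 0.51 at the low dose (limma adjusted p = 0.278). Rfx2, which binds X-box sites in front of cilium genes, stood on day 6 at 0.94, 0.98, 0.96, 1.98 and 0.87 in air rats, 1.06, 0.89, 1.67, 1.03 and 0.97 in low dose rats and 0.95, 1.00, 0.30, 0.86 and 0.28 in high dose rats. On day 28 Rfx2 was at 1.11, 1.28, 1.54, 1.00 and 1.12 in air, 0.67, 1.67, 1.51, 1.35 and 1.24 in low dose and 1.88, 1.53, 1.37, 1.21 and 1.52 in high dose rats. The high dose difference of Rfx2 on day 6 was -0.47 ± 0.20 (SE, n = 5; limma adjusted p = 0.0718), with high dose rats 77 and 79 the lowest. Without air rat 4 the Rfx2 difference was -0.26 (limma adjusted p = 0.288), and without high dose rat 76 the adjusted p came to 0.0474, past the threshold.

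RFX factors recognize the X-box, and sequences at the gene starts are shown as a description. RefSeq windows of assembly GRCr8, from 250 bases before to 50 bases after each gene start, were found for 45 of the 57 measured genes (48 windows). The hexamer GTTGCC, an arm of the X-box, or its reverse GGCAAC occurred in 17 of the 48 windows (35.4%) and in 12.2% of all 33469 windows. The forkhead motif TGTTTAC or its reverse GTAAACA, of the kind Foxj1 binds, occurred in 4 of 48 (8.33%) against 3.78% of all windows. Counted by gene it occurred in 3 of 45 (6.67%) against 4.13% of all genes with a window. Cfap20 held both motifs. Genes with the hexamer included close followers of the other members, such as Spag6l (r = 0.97) and Tekt4 (0.94). Others with it followed weakly or not at all, such as Tekt2 (0.40) and Spag4 (-0.32). Cfap77, the closest follower, was not among the genes found with it. A link between the hexamer and the shared swing was not tested. Base composition was not matched, a letter match is not a bound site, and its absence from a window says nothing on the factor. The short stretches below are a selection, all from genes with r of 0.82 to 0.97. They run 5′ to 3′ along the gene, with the hexamer in capitals.
Tekt1 (chr10:57479143-57479172, minus strand): acgttgcgtccgGTTGCCatagtgaccgca
Tekt4 (chr10:14992267-14992296, plus strand): caatgttcctgaGGCAACcaggagccttgc
Dnai2 (chr10:100258955-100258984, plus strand): ccagggttgctaGGCAACcggtaaactccg
Drc1 (chr6:31779258-31779287, minus strand): ctgctttcccttGGCAACggcttgttccta
Spag6l (chr11:97677764-97677793, plus strand): cggttgcggtcaGTTGCCctggagacgtat
Spag8 (chr5:62699652-62699681, minus strand): tgccgtctctatGGCAACccggtaggcgga
Rfx2 (chr9:1758270-1758299, minus strand): agcctggtaaccGTTGCCgggcgcaacgcc

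The whole windows of Tekt2 and Spag5 are given next, as the 2 genes that rose at both doses. Tekt2 held the hexamer at 2 places and Spag5 at none.
Tekt2 (chr5:143907675-143907974, minus strand): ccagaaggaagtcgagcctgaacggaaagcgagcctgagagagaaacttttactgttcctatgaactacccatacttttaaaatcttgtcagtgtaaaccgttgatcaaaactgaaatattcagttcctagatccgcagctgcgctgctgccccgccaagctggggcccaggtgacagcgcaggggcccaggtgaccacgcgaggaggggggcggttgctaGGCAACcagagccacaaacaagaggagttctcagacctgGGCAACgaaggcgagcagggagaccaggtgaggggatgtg
Spag5 (chr10:63696586-63696885, plus strand): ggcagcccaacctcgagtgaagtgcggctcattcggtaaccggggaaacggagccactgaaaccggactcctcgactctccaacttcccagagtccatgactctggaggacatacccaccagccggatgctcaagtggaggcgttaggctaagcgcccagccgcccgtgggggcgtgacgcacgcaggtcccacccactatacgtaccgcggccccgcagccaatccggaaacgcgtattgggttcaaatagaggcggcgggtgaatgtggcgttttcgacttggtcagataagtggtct

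Dynein arms drive the beat, and with all rats none of the 6 tested dynein genes was called at either dose and time. On day 6 their differences from air ran from -0.61 to 0.18 at the high dose and from -0.16 to 0.44 at the low dose. Dnai1, an intermediate chain of the outer arm, stood at 0.83, 1.47, 1.05, 2.45 and 1.23 in air rats, 1.39, 1.05, 1.95, 0.94 and 0.89 in low dose rats and 1.30, 1.43, 0.35, 0.73 and 0.15 in high dose rats. Its high dose difference was -0.61 ± 0.28 (SE, n = 5; limma adjusted p = 0.0895), and -0.35 without air rat 4. With each of 10 rats left out in turn the difference reached -0.77, and Dnai1 was called in 2 of the 10 fits (lowest limma adjusted p = 0.0384). On day 28 Dnai1 was at 1.20, 1.51, 1.71, 1.03 and 0.69 in air, 0.98, 1.74, 1.28, 1.74 and 1.56 in low dose and 2.02, 0.92, 1.49, 1.63 and 1.40 in high dose rats, with full overlap. Dnai2, its partner chain in the outer arm, stood on day 6 at -0.25, 0.14, -0.26, 1.36 and 0.10 in air, 0.76, 0.67, 1.23, 0.52 and 0.13 in low dose and 0.89, 1.43, -0.36, 0.38 and -0.37 in high dose rats. The high dose mean of Dnai2 was above the air mean (difference 0.17, SE 0.30), opposite in sign to Dnai1. Day 28 values of Dnai2 were 0.04, 0.03, 0.81, -0.05 and -0.43 in air, 0.06, 0.83, 0.25, 0.45 and 0.31 in low dose and 0.55, 0.25, 0.16, 0.28 and 0.38 in high dose rats. The inner arm heavy chain Dnah1 differed by 0.18 at the high dose and Dnai7 by -0.40.

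The molecular ruler and the nexin link space and connect the arms. Their 5 tested genes differed from air by -0.17 to 0.41 at the high dose and by -0.01 to 0.67 at the low dose, with no call. Ccdc40, which with Ccdc39 forms the ruler, stood on day 6 at 1.74, 1.97, 1.83, 3.59 and 2.00 in air rats, 2.71, 2.05, 2.96, 2.14 and 2.11 in low dose rats and 2.58, 2.46, 1.45, 2.37 and 1.63 in high dose rats. All 5 low dose rats lay above the 4 air rats other than rat 4. On day 28 Ccdc40 was at 2.42, 2.54, 2.61, 1.76 and 1.93 in air, 1.64, 2.96, 2.40, 2.48 and 2.57 in low dose and 2.96, 1.79, 2.47, 2.29 and 2.42 in high dose rats. Drc1, a base-plate subunit of the nexin link, stood on day 6 at 2.33, 2.84, 2.59, 3.58 and 2.28 in air, 2.84, 2.34, 3.27, 2.47 and 2.65 in low dose and 3.10, 2.81, 2.06, 2.80 and 2.00 in high dose rats. The groups overlapped, with differences of -0.17 and -0.01 at the high and low dose. Day 28 values of Drc1 were 3.02, 2.83, 3.02, 2.42 and 2.47 in air, 2.07, 3.29, 2.95, 3.27 and 2.86 in low dose and 3.31, 1.99, 2.51, 3.21 and 2.98 in high dose rats.

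Radial spokes pass signals from the central pair to the arms. The 6 spoke genes differed from air by -0.36 to 0.06 at the high dose and by -0.04 to 0.23 at the low dose, and the central pair genes Spag6l and Spag16 by -0.04 and -0.26 at the high dose. Rsph1, a spoke head protein, stood on day 6 at 2.47, 2.88, 2.77, 3.53 and 2.58 in air rats, 3.09, 2.72, 3.16, 2.83 and 2.60 in low dose rats and 2.94, 2.84, 2.25, 2.91 and 2.62 in high dose rats. Rsph1 spread less than most members, with a within-group SD of 0.29. On day 28 it was at 3.13, 3.22, 3.06, 2.90 and 3.07 in air, 2.54, 3.20, 3.11, 3.16 and 3.08 in low dose and 3.30, 2.52, 2.98, 3.19 and 3.03 in high dose rats, where low dose rat 52 and high dose rat 81 were low, as they were for the cilium genes as a whole. The doublet wall and its inner proteins had 17 tested genes, and apart from Tekt2 their high dose differences ran from -0.48 (Cfap45) to 0.27 (Tekt3).

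Cfap43, a subunit of the tether that holds an inner dynein arm, varied widely inside groups. It was read by 1 probe, and whether that probe binds alike in all rats of this outbred strain was not tested. Its day 6 values were 0.30, 0.50, 1.53, 0.90 and 0.29 in air rats, 2.13, 0.23, 0.47, 1.83 and 1.56 in low dose rats and 0.43, 2.46, 0.79, 0.03 and 0.67 in high dose rats. Its day 28 values were 0.36, 1.74, 1.82, 1.99 and 0.05 in air, 0.39, 0.53, 0.25, 0.49 and 0.29 in low dose and 2.81, 0.16, 1.71, 1.99 and 0.41 in high dose rats. High and low values lie side by side within 5 of the 6 groups, and no comparison was called. The within-group SD of 0.81 stood above that of 99.5% of all genes.

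Air rat 4 was set apart by its high values in the cilium genes themselves, so higher differences from air without it are built in. Without air rat 4, more of the genes were called at the same doses. The high dose then gave 5 calls (9.62%, with 34.4% of all genes called) and the low dose 4 (7.69%, against 7.12%), and the medians over the 52 genes moved from -0.09 to 0.12 and from 0.14 to 0.36. The calls added at both doses were Drc3, a nexin link subunit, and Cfap119. Drc3 stood on day 6 at 1.67, 2.16, 1.56, 3.36 and 1.65 in air rats, 3.02, 2.56, 3.26, 2.51 and 2.42 in low dose rats and 3.10, 3.25, 1.67, 2.64 and 1.82 in high dose rats. Without rat 4 every low dose rat lies above every air rat, and Drc3 was 0.99 higher at the low dose (SE 0.26, limma adjusted p = 0.0171) and 0.73 higher at the high dose (SE 0.26, limma adjusted p = 0.0301). With all rats its differences were 0.67 and 0.41 (limma adjusted p = 0.191 and 0.293). Within slides 1 to 4, with rat 4 on slide 3, the Drc3 differences at the high dose were 1.59, 0.07, -0.26 and 0.11. At the low dose they were 0.90, 0.86, -0.53 and 0.95. Cfap119 stood at 1.19, 1.41, 1.25, 2.16 and 1.33 in air, 1.82, 1.90, 2.09, 1.80 and 2.04 in low dose and 2.41, 2.12, 1.82, 1.54 and 1.27 in high dose rats. Its differences without rat 4 were 0.63 at the low dose (limma adjusted p = 0.0413) and 0.54 at the high dose (limma adjusted p = 0.0301). With all rats Cfap119 was not called, with group means of 1.47 in air, 1.93 in low dose and 1.83 in high dose rats. Within slides its differences ran from -0.006 to 0.86 at the high dose and from -0.10 to 0.64 at the low dose. Tekt2, Spag5 and Tppp3 kept their calls without air rat 4, at 1.28, 2.03 and -1.04 for the high dose.

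Between the doses on day 6, Spag5 and Tppp3 were the genes called, 2 of 52 (3.85%) where 11.9% of all genes were. The median difference of high from low dose was -0.24, and 46 of the 52 genes lay below 0, where 47% of all genes did. The members share the lungs of the same 10 rats and swing together, so these 46 are not separate observations. In that comparison high dose rats 77 and 79 are the low end and low dose rat 49 the high end of the cilium medians.

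On day 28 no member was called against air: 0 of 52 at the high dose, where 0.185% of all genes were called, and 0 of 52 at the low dose, where 0.0109% were. At an unadjusted p under 0.05 limma had 3 members at the high and 1 at the low dose. The median differences were 0.13 and 0.09, against -0.01 for all genes at both doses. The 95% interval lay within 1 log2 unit of 0 for 48 of the 52 genes at the high dose and 49 at the low dose. High and low dose gave 0 calls on that day (0.141% of all genes, and 1 member at an unadjusted p under 0.05), and air rats of the 2 days gave 0 calls (2.95% of all genes, and 7 members at an unadjusted p under 0.05). The change of the effect between the days was called for 3 members at the high dose (5.77%, with 16.7% of all genes called) and 2 at the low dose (3.85%, with 1.97%), which are the genes described above.

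Cilium genes outside the naming rule were read in the same comparisons, where 21.0% of all genes were higher and 15.5% lower at the high dose and 4.96% higher at the low dose. Of 55 further genes of the axoneme and of ciliated cells, 1 rose (Ccdc146, 0.56) and 6 fell at the high dose on day 6, with a median of -0.07. The 6 were the spoke gene Dnajb13 (-0.62), the tubulins Tuba1a (-0.55) and Tubb4a (-0.50), the central pair gene Spef1 (-0.51), Mycbpap (-0.45) and Efhc2 (-0.36). Without air rat 4 the counts were 3 higher and 3 lower, and at the low dose they were 0 and 0 with that rat and 3 and 0 without it. Of 22 dynein assembly and docking genes 2 rose at the high dose (Pih1d1 by 0.45 and Dnal1 by 0.40) and 0 at the low dose, and without air rat 4 the counts were 3 and 3. None of 9 multiciliation regulators was called at either dose, with or without that rat.

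Genes of intraflagellar and ciliary transport, which serve immotile cilia of many cell types as well, had 2 higher and 10 lower of 36 at the high dose, where 21.0% of all genes were higher and 15.5% lower. The lower ones included Dync2i1 of the retrograde motor (-0.53), the vesicle coat genes Bbs7 (-0.40) and Bbs2 (-0.37), Arl13b (-0.39), Ift88 (-0.33) and the kinesin gene Kif3b (-0.29), and the higher ones were Ttc21b (0.50) and Ift80 (0.35). Without air rat 4 the counts were 2 and 7. With all 5 air rats, 7 of 10 alveolar type I markers were lower at the high dose (median -0.61), and their part in the transport genes' values was not tested. None of the 36 was called at the low dose.

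Where each rat's cilium median was added to the fit as a covariate, an alternative chosen after the data were seen, differences are read relative to the other cilium genes. The median SE of the members fell from 0.24 to 0.12, and 13 of the 52 were called at the high dose on day 6 (37.7% of all genes), 6 higher and 7 lower. Besides Tekt2 (1.22), Spag5 (2.00) and Tppp3 (-1.04), the higher ones were Drc3 (0.48), Cfap119 (0.41), Drc7 (0.34) and Dnah1 (0.24), and the lower ones were Dnai1 (-0.55), Rfx2 (-0.43), Cfap45 (-0.42), Dnai7 (-0.35), Rsph9 (-0.29) and Spag16 (-0.23). With the covariate but without air rat 4, Spag16 was no longer called and Tekt5 was (-0.29, limma adjusted p = 0.018). The covariate is made of the tested genes themselves, so differences on either side of it are built in. At the low dose 4 were called (9.16% of all genes): Tekt2, Spag5, Drc3 (0.43) and Dnai1 (-0.40).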

How the data were processed

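Lung RNA of 30 rats was measured on 30 Agilent 2-colour arrays. The deposited scanner files hold a median intensity per spot and colour, read by Agilent Feature Extraction 11.0.1.1 per the file headers. The authors' deposited value table holds log2 ratios, and their normalization was not given in the sources used. They correlated at 0.997 to 1.000 with loess log2 ratios of the scanner values without background correction, so scale and direction were taken as log2 of Cy5 over Cy3; column medians were -0.0314 to -0.00539. Per the labels' protocols RNA integrity numbers were above 7. The labels name both a mouse and a rat reference RNA, which drops out of differences between groups. They also give the nanoparticle as treatment at dose 0, and those rats were handled as the air controls of the protocol.

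Median intensities were corrected with normexp (offset 50) on local background medians and loess-normalized within arrays. Control spots (6.76% of 62976) had no weight, flagged spots were removed, and spots of a probe averaged. Probes above background in Cy5 on at least 5 of 30 arrays were kept (20852 of 30367), and the probe with the highest mean Cy5 stood for a gene (18420 genes). RefSeq names of assembly GRCr8 were matched by accession to 18005 probes. Group means of 6 groups were fitted with limma 3.58.1 in R 4.3.3, giving 9 comparisons with Benjamini-Hochberg adjustment over all genes of each. The fit was tested on simulated data with noise drawn separately for each gene. That test does not cover genes that swing together between rats. The number of arrays limits the precision.

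The genes, lists and tests, and which genes to name, were chosen with earlier results of these data known. That rule gives values in every rat for a fixed panel and for the largest called changes in comparisons with air, Drc3 and Cfap119 being named after their values were seen. Alternatives were other normalizations, signals, probe filters and probe choices, slide as a block, the authors' table, fewer groups, and each rat left out.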

Additional observations from a re-analysis of the deposited data

Results flagged for a closer look

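Single rats stood far from the rest of their group in 10 of 84 combinations of a named gene and a group, where chance flags about 1 in 20 of separate combinations. Of these, 6 were air rat 4 of day 6. Most of the named genes share the swing between rats, so the 10 are not separate observations and that rate cannot be set against them. Cfap119 was also named after its values were seen. In that rat Foxj1 stood at 4.92 where the other air rats of day 6 reached 3.61, Rfx2 at 1.98 against 0.98, Tekt1 at 2.14 against 1.02, Ccdc40 at 3.59 against 2.00, Dnai2 at 1.36 against 0.14 and Cfap119 at 2.16 against 1.41. The same rat had the highest club, heart muscle, smooth muscle and cartilage marker means of all 30 rats. The part of these tissues in its cilium values was not tested.

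Low dose rat 52 of day 28 was far below its group for Foxj1 (2.93 against 4.08 or more in the others) and Rsph1 (2.54 against 3.08 or more). Air rat 9 of day 28 was low for Foxj1 (3.50 against 3.89 or more), and low dose rat 49 of day 6 was high for Rfx2 (1.67 against at most 1.06).

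The effect of exposure differed between day 6 and day 28, by limma's test of that difference, for Tekt2 at the high dose (-1.25) and the low dose (-1.06), for Spag5 at the high dose (-2.23) and the low dose (-1.11) and for Tppp3 at the high dose (1.26).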

How the results depend on the processing

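Called differences of Tekt2, Spag5 and Tppp3 kept their direction and their call in every other processing that had been listed and with each rat left out, with 1 exception: under median centring in place of loess the change of the low dose effect between the days was -0.79 for Tekt2 (adjusted p = 0.082) and -0.85 for Spag5 (adjusted p = 0.195), which leaves 0 of 2 calls. The cause was not tested. That centring also moved the median of all genes by more than 0.1 on day 28 (0.11 for low dose against air, -0.15 for high against low dose, -0.11 for air on day 28 against day 6). At the high dose on day 6 the count of 3 calls became 4 with slide as a block (adding Tekt5), 5 with Cy5 alone, 5 with the authors' table, 5 with the fit limited to the compared groups and 13 with the cilium median as a covariate. The change of the high dose effect between the days went from 3 calls to 5 without background correction, 5 with Cy5 alone, 8 with the authors' table and 6 with the covariate. Air rats of the 2 days went from 0 calls to 1 with only those groups and 2 with the covariate, and the low dose on day 6 from 2 to 4 with the covariate. Some low dose differences on day 6 changed sign. Rsph1 (0.03) went to -0.022 under median centring, -0.028 with slide as a block and -0.10 with the covariate. Drc1 (-0.01) went to 0.037 without background correction and 0.0098 with the authors' table. Foxj1 and Ccdc40, whose positive differences were larger than these, went to -0.041 and -0.090 only with the covariate, which is made of the tested genes themselves.

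Leaving out 1 rat at a time gave 3 to 6 calls at the high dose and 2 to 4 at the low dose on day 6, 2 to 3 between the doses, 0 to 1 at the high dose and 0 to 0 in the other comparisons of day 28, 0 to 2 between air rats, 3 to 6 for the change of the high dose effect and 2 to 2 for that of the low dose. The 6 calls at the high dose came without high dose rat 76 (adding Rfx2, Dnai1 and Cfap418), as did the 6 of the changed effect, which also came without air rat 8 of day 28. Without that air rat Cfap410 was called at the high dose on day 28, and Cfap410 and Cfap141 between air rats. High dose differences of day 6 that crossed 0 ranged from -0.018 to 0.44 for Foxj1, -0.38 to 0.068 for Tekt1, -0.25 to 0.21 for Ccdc40, -0.087 to 0.46 for Dnai2, -0.23 to 0.039 for Rsph1, -0.22 to 0.38 for Cfap43 and -0.30 to 0.045 for Drc1. Low dose ones ranged from -0.16 to 0.19 for Rfx2, -0.34 to 0.10 for Dnai1, -0.061 to 0.21 for Rsph1 and -0.15 to 0.21 for Drc1.

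No paired analysis was possible because the groups share no rat numbers. Genes without a matched probe and dim probes are outside these results, and 5 rats per group with a wide spread gave 95% intervals that reach a median of 0.497 (log2) to each side of a member's difference.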

Other observations

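Cfap43 values fell on either side of a gap between 0.90 and 1.53, with 19 rats below it and 11 above it. The rats above the gap numbered 1 of 5 in air, 3 of 5 in low dose and 1 of 5 in high dose rats on day 6, and 3 of 5, 0 of 5 and 3 of 5 on day 28. The authors' deposited table also puts 19 rats below and 11 above, with a gap from 1.05 to 1.83. The gap takes up a share of 0.227 of the gene's whole range. It was picked as the largest between neighbouring values, which every gene has, and was not set against the gaps of other genes.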
